A study of Solanum lycopersicum with 48 samples.

Results

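A run of loci numbered next to each other on tomato chromosome 9 was examined between 2 cultivars, Guozhen No.1 and Guizhen No.1. The segment was bounded by the locus numbers Solyc09g011400 and Solyc09g011900 and held 47 rows of the deposited table. Of these, 40 had at least 1 FPKM in at least 3 of 48 libraries and form the set described here, out of 22117 genes of the table that met the same condition. FPKM counts the sequenced fragments of a gene relative to its length and to the size of the library. The segment was chosen by the FPKM differences between the cultivars in these same libraries, so every comparison of Guozhen with Guizhen below is a description without a test. The responses to nitrogen and the differences between days within a cultivar were not used to pick it, and these were tested.

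The plants were grown hydroponically in a growth chamber in Hoagland solution holding 1 mM nitrogen (low) or 9 mM nitrogen (normal, labelled CK). Roots and leaves were collected at day 1 and day 7, and what the days were counted from is not in the labels. There were 16 groups of 3 libraries, 1 for each nitrogen level, day, organ and cultivar. Nothing in the labels says whether these came from separate plants, so the p-values below measure the spread between libraries, which may be technical.

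A tomato locus number gives the chromosome and the order of a gene along it, and neighbouring loci usually differ by 10 in their last digits. Neighbouring genes can be copies that arose by tandem duplication, in which case they often belong to 1 family, or they can be unrelated. A cultivar is a bred line, and 2 cultivars can carry different versions of a chromosome stretch. Plants take up nitrogen through the roots, mainly as nitrate or ammonium, and a shortage is known to change the transcripts of both roots and leaves. The deposited table gives locus numbers without gene names, and the tomato gene table used for names (41476 entries) shared none of its identifiers with them. The loci are therefore named by number, with no function, and whether any of them shares reads with a near-identical copy could not be checked.

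Column sums lay between 577123 and 689680 FPKM. Sequencing depth was not stated. Relative to the median library, depth estimated from the smallest values was 0.752 to 2.13 in Guozhen and 0.818 to 1.27 in Guizhen. The value of 2.13 was that of 1 library, replicate 2 of Guozhen roots at day 7 and normal nitrogen. The next highest Guozhen library was at 1.31. The labelled organs differed as leaf and root do: 3 loci listed here as Rubisco small subunit, part of the carbon-fixing enzyme of leaves (a class not checked against a gene map), had 617 to 41242 FPKM in leaf libraries and 0.836 to 49.3 FPKM in root libraries. Solyc11g069750, listed likewise as a nitrate transporter locus, had 0 to 11.4 FPKM in root libraries and was listed at 0 in every leaf library. Within groups, libraries correlated at Pearson's r of 0.972 to 0.988 over log2(FPKM + 1), apart from Guozhen leaves at day 1 and low nitrogen. There, replicate 3 correlated at 0.955 with replicate 1 and at 0.973 with replicate 2. Counts of members in the comparisons at that day that use this library are given with and without it.

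The 7 rows of the segment outside the set were close to 0. The 2 nearest the threshold, Solyc09g011430 and Solyc09g011700, peaked at 1.03 FPKM and 1.09 FPKM and reached 1 FPKM in 1 library each. Of the members, Solyc09g011500 reached 1 FPKM in the fewest libraries, 20, well above the 3 required. All 40 members passed the same filter within root (3 of 24 libraries), and 39 passed it within leaf. In root 1 member passed through Guizhen, having fewer than 3 Guozhen libraries at 1 FPKM. In leaf 2 members, Solyc09g011540 among them, had fewer than 3 Guozhen libraries at that level, and 1, Solyc09g011570, had fewer than 3 Guizhen libraries. Solyc09g011540 and Solyc09g011570 are among the leaf members called apart below. Each was higher in the cultivar that carried it through the filter.

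The members spanned a wide range of levels, and many were found in both organs. In 17 of the 40, mean FPKM was at least 10 in both root and leaf. Solyc09g011810 was a leaf transcript, with a mean over 24 libraries of 282 FPKM in leaf and 0.498 FPKM in root. Solyc09g011570 was a root transcript, with 62.0 FPKM in root and 0.832 FPKM in leaf. Solyc09g011590 was high in both organs, with a mean of 113 FPKM in root and 209 FPKM in leaf. The other members with the highest root means were Solyc09g011670 at 136 FPKM and Solyc09g011420 at 106 FPKM.

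The first comparison set Guozhen against Guizhen within each organ, day and nitrogen level. A gene is called apart here when the 3 libraries of one cultivar did not overlap the 3 of the other and the means of log2(FPKM + 1) differed by at least 1. In whole organs, fewer cells of a type and less RNA per cell cannot be told apart. By this description 22 of the 40 members were apart in at least 1 of 8 comparisons, and 18 in none. In 8 members every such difference was higher in Guozhen, in 12 every one was lower, and 2 members differed in both directions. The 66 apart values, 26 higher and 40 lower in Guozhen, came from 316 pairs of a member and a comparison, and their differences reached 3.81 and -3.99 on the log2 scale. Of the 66, 50 were apart whichever 1 library was left out. The share of all genes apart over the 8 comparisons together was not counted. Within root, 5.29% of all genes were apart in at least 1 of the 4 comparisons, and within leaf 5.38%. Apart in 1 direction in all 4 comparisons of an organ were 7.5% of the root members and 7.69% of the leaf members. Of all genes 0.23% and 0.242% were.

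In root at day 1 and low nitrogen, 5 members were higher and 1 was lower in Guozhen than in Guizhen, where 0.807% of all genes were apart as higher and 0.362% as lower. At normal nitrogen 4 were higher and 6 lower, against 1.11% and 0.68% of all genes. In root at day 7 and low nitrogen 4 were higher and 5 lower, against 1.94% and 0.935%, and at normal nitrogen 2 were higher and 4 lower, against 0.763% and 0.465%.

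In leaf at day 1 and low nitrogen, 3 of 39 members were higher and 6 lower in Guozhen, against 0.732% and 1.02% of all genes. At normal nitrogen 3 were higher and 9 lower, against 1.43% and 1.43%. In leaf at day 7 and low nitrogen 4 were higher and 4 lower, against 0.999% and 0.802%, and at normal nitrogen 1 was higher and 5 were lower, against 0.469% and 0.717%. Since the cultivar differences picked the segment, nothing is read from these counts. The median difference of the members stayed between -0.15 and -0.04 in all 8 comparisons, beside -0.04 to 0.08 over all genes tested. Without replicate 3 of the Guozhen leaves at day 1 and low nitrogen, 3 members were higher and 3 lower there.

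**Figure D1:**
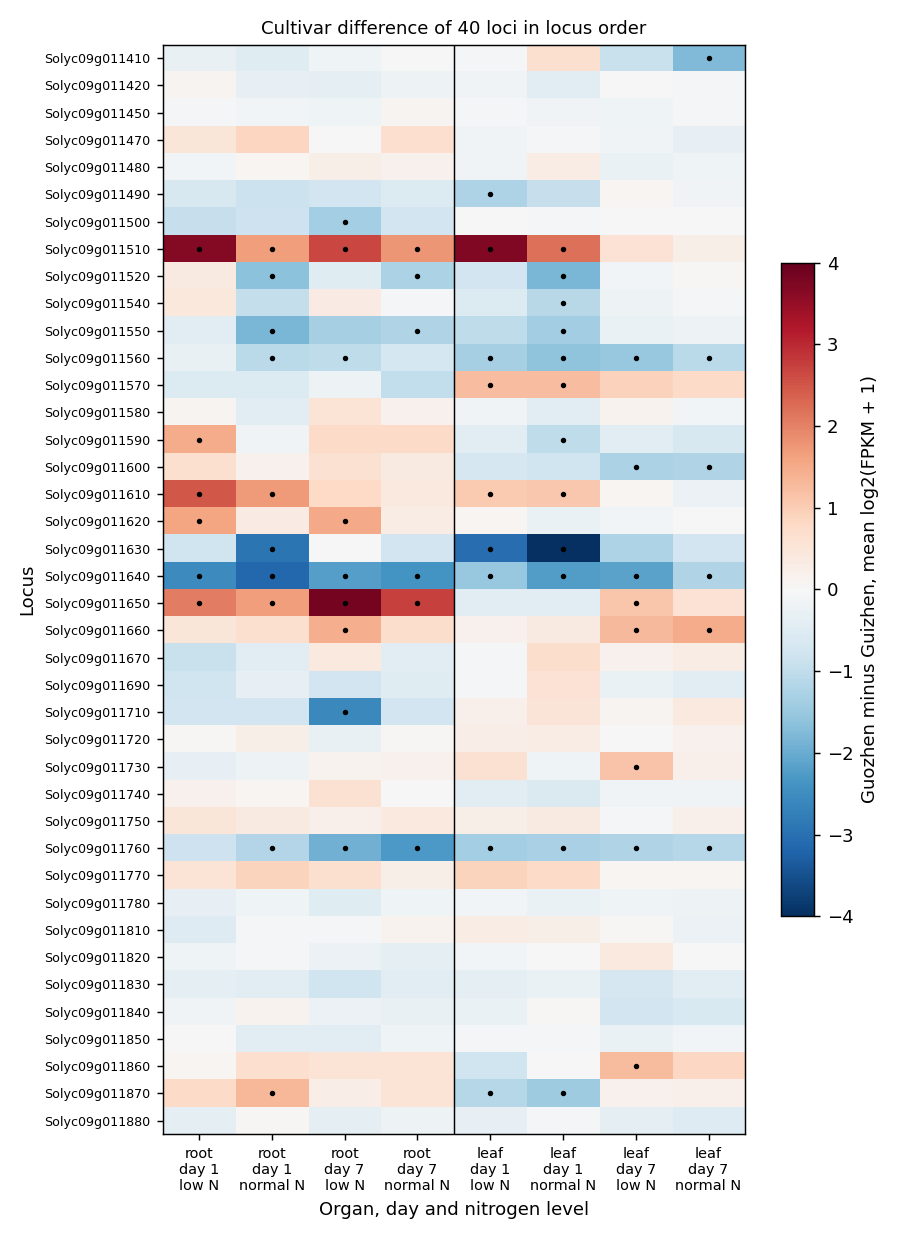
Guozhen minus Guizhen for the 40 members in locus order (rows) and the 8 comparisons of organ, day and nitrogen level (columns), as the difference of mean log2(FPKM + 1) of 3 libraries each; dots mark members that are apart. Red and blue rows alternate in the middle of the segment, between Solyc09g011490 and Solyc09g011660, and most rows above and below are pale.

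The apart members were packed in the middle of the segment. Of the 17 members between Solyc09g011490 and Solyc09g011660, 16 were apart in some comparison, 12 of them in root and 14 in leaf, and they held 52 of the 66 apart values. Solyc09g011580 was the exception. Of the 5 members before this stretch 1 was apart anywhere, and of the 18 after it 5 were, with 13 apart values. The stretch was drawn after the values were seen, so it was not tested.

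The largest differences toward Guozhen were those of 2 loci that are not neighbours. Solyc09g011510 had 216, 154 and 191 FPKM in Guozhen roots at day 1 and low nitrogen, against 16.002, 14.2 and 11.4 FPKM in Guizhen roots. At normal nitrogen of the same day it had 101, 110.1 and 75.6 FPKM in Guozhen roots, against 38.5, 30.4 and 21.3 FPKM in Guizhen roots. All Guozhen libraries were above all Guizhen libraries in both comparisons, with differences of 3.66 and 1.66. At day 7 the same locus had 28.3, 33.8 and 51.3 FPKM in Guozhen roots at low nitrogen, against 4.05, 5.99 and 5.03 FPKM in Guizhen roots. At normal nitrogen it had 16.4, 13.3 and 14.7 FPKM in Guozhen roots, against 2.998, 2.26 and 6.77 FPKM in Guizhen roots. The roots of the cultivars again did not overlap.

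In leaves Solyc09g011510 had 54.3, 41.6 and 11.4 FPKM in Guozhen at day 1 and low nitrogen, against 2.09, 0.468 and 1.91 FPKM in Guizhen. At normal nitrogen it had 12.1, 9.39 and 9.36 FPKM in Guozhen leaves, against 1.95, 1.39 and 1.02 FPKM in Guizhen leaves. By day 7 it was near 0 in the leaves of both, at 0.243 to 1.01 FPKM in Guozhen and 0.101 to 0.282 FPKM in Guizhen over both nitrogen levels. Its differences were 0.58 and 0.25 there, on a scale where the pseudocount of 1 shrinks low values.

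Solyc09g011650 was the other member that was higher in Guozhen roots in all 4 comparisons, and its difference was larger at day 7 than at day 1. At day 7 and low nitrogen it had 285, 291 and 226 FPKM in Guozhen roots, against 14.4, 17.4 and 23.0 FPKM in Guizhen roots, a difference of 3.81. At normal nitrogen of day 7 it had 134, 131 and 137 FPKM in Guozhen roots, against 14.6, 21.2 and 22.2 FPKM in Guizhen roots, a difference of 2.75. At day 1 the differences were 2.06 at low nitrogen and 1.66 at normal nitrogen, with 54.0 to 85.4 FPKM in Guozhen roots and 12.04 to 21.4 FPKM in Guizhen roots. Every Guozhen root library was above every Guizhen root library of its day and nitrogen level.

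Leaves did not repeat the root pattern of Solyc09g011650. At day 1 and low nitrogen it had 25.3, 27.5 and 24.6 FPKM in Guozhen leaves, against 31.1, 34.0 and 38.8 FPKM in Guizhen leaves, a difference of -0.41 that was not apart. At day 7 and low nitrogen it had 28.9, 35.0 and 29.0 FPKM in Guozhen leaves, against 15.2, 14.2 and 11.9 FPKM in Guizhen leaves, a difference of 1.12. The order of the cultivars in leaf was thus turned round between these comparisons, with no overlap of libraries in either.

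Its neighbour Solyc09g011640 lay on the opposite side and was the 1 member apart in all 8 comparisons. At day 1 and normal nitrogen it had 0.649, 0 and 1.07 FPKM in Guozhen roots, against 13.02, 12.5 and 11.1 FPKM in Guizhen roots. At day 1 and low nitrogen it had 1.20, 1.21 and 0.401 FPKM in Guozhen roots, against 12.3, 9.60 and 8.61 FPKM in Guizhen roots. The differences in root were -2.54 and -3.13 at day 1 and -2.20 and -2.38 at day 7, at low and at normal nitrogen.

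In leaves at day 1 and normal nitrogen Solyc09g011640 had 0, 1.57 and 1.83 FPKM in Guozhen, against 9.62, 8.42 and 6.68 FPKM in Guizhen. At day 7 and low nitrogen it had 2.97, 0 and 0 FPKM in Guozhen leaves, against 5.81, 6.28 and 5.76 FPKM in Guizhen leaves. The smallest of its 8 differences was -1.21, in leaves at day 7 and normal nitrogen, and there it was -0.83 without Guozhen replicate 2. An exact 0 in a table without counts can be a failed estimate, and 56 of the 1920 member values were 0.

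**Figure D2:**
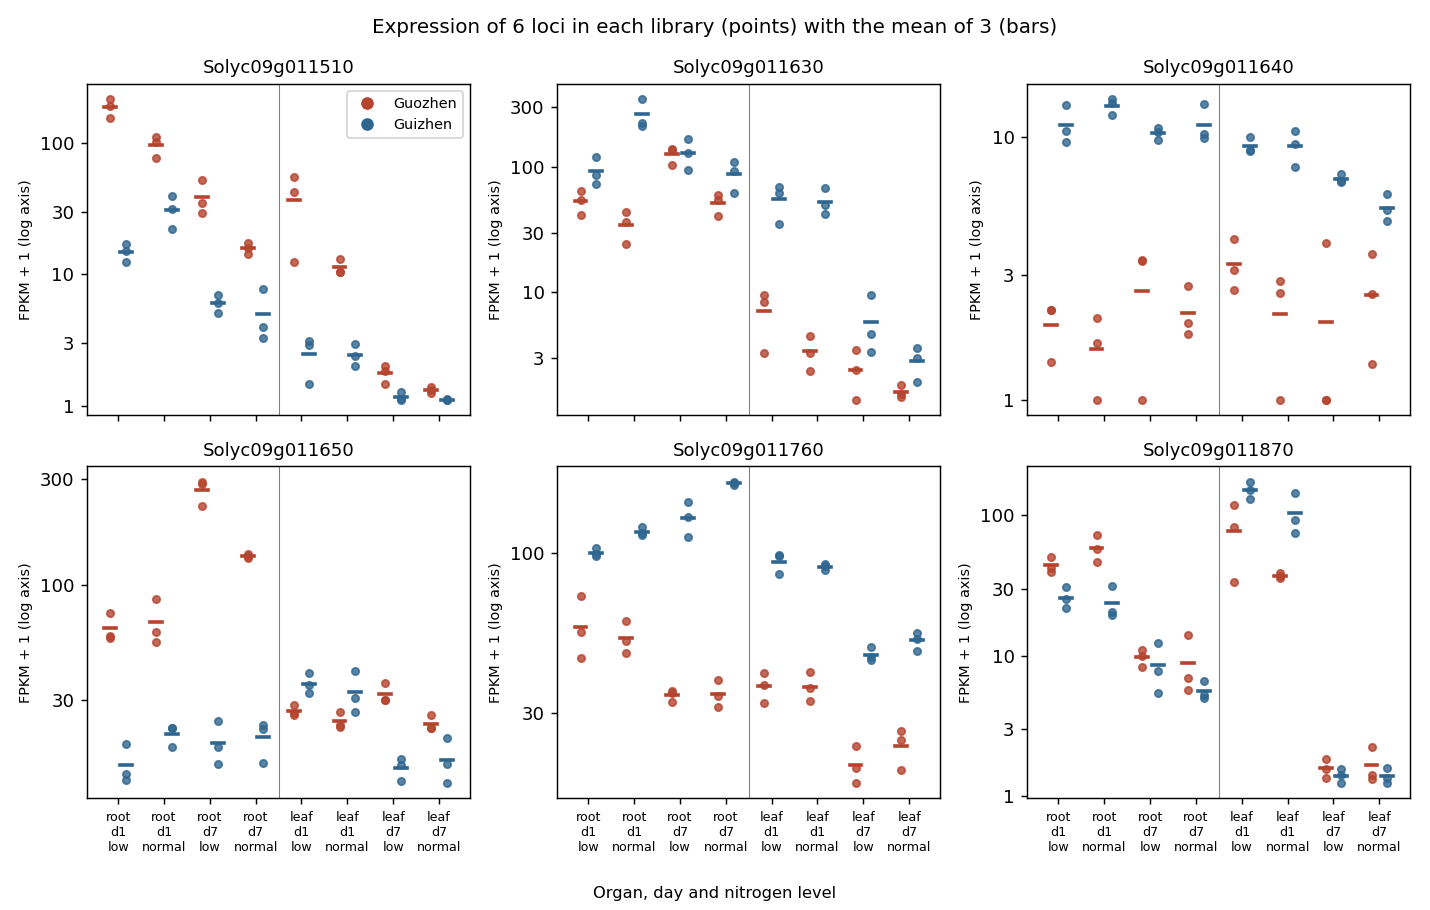
FPKM + 1 on a log axis for each library of 6 members in the 8 groups of organ, day and nitrogen level, Guozhen left of Guizhen; points are libraries and bars are means of 3 libraries. Solyc09g011510 and Solyc09g011650 sit higher in Guozhen roots, Solyc09g011640 and Solyc09g011760 sit lower in Guozhen throughout, and the cultivars separate in Solyc09g011630 at day 1.

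Solyc09g011760, which lies outside the middle stretch, was lower in Guozhen with little spread. At day 7 and normal nitrogen it had 37.6, 30.3 and 33.2 FPKM in Guozhen roots, against 165 to 170.5 FPKM in the 3 Guizhen libraries, or 33.7 ± 3.68 against 168 ± 2.51 FPKM (SD, n = 3 each). In leaves at day 1 and normal nitrogen it had 35.3, 31.8 and 39.9 FPKM in Guozhen, against 90.9, 89.6 and 86.9 FPKM in Guizhen. No Guozhen library reached a Guizhen one in any of its 8 comparisons. The difference was under 1 in 1 of them, roots at day 1 and low nitrogen, where it was -0.83.

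Solyc09g011560 was lower in Guozhen leaves in all 4 comparisons. At day 1 and normal nitrogen it had 26.4, 28.7 and 24.3 FPKM in Guozhen leaves, against 84.8, 96.0 and 67.4 FPKM in Guizhen leaves, a difference of -1.60. At day 1 and low nitrogen it had 67.2, 55.6 and 24.4 FPKM in Guozhen leaves, against 127, 98.3 and 121 FPKM in Guizhen leaves. That difference was -1.33 with all libraries and -0.90 without Guozhen replicate 3. At day 7 and normal nitrogen the difference of -1.08 came to -0.70 without Guizhen replicate 2. In roots at day 7 and low nitrogen it was -1.02, the smallest value called apart, and it came to between -0.99 and -0.81 when any 1 of 3 libraries was left out.

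Solyc09g011630 differed most at day 1. In leaves at normal nitrogen it had 3.51, 1.38 and 2.27 FPKM in Guozhen, against 66.3, 48.3 and 41.2 FPKM in Guizhen, the largest difference of any member at -3.99. In roots at normal nitrogen of that day it had 42.5, 35.3 and 23.3 FPKM in Guozhen, against 349, 222 and 212 FPKM in Guizhen, a difference of -2.92. At day 7 and low nitrogen the same locus had 103, 136 and 137 FPKM in Guozhen roots, against 165, 128 and 92.8 FPKM in Guizhen roots. The libraries overlapped there and the difference was -0.01.

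A pair of members changed sides. Solyc09g011870 had 56.6, 45.8 and 71.3 FPKM in Guozhen roots at day 1 and normal nitrogen, against 18.4, 30.6 and 19.4 FPKM in Guizhen roots, a difference of 1.32. In leaves of the same day and nitrogen level it had 35.8, 38.0 and 34.6 FPKM in Guozhen, against 90.7, 142 and 73.6 FPKM in Guizhen, a difference of -1.42. Guozhen was therefore above Guizhen in roots and below it in leaves, without overlap. In leaves at day 1 and low nitrogen its difference of -1.14 came to -0.62 without Guozhen replicate 3.

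Solyc09g011590, the most abundant member of the middle stretch, was the second of the pair. It had 312, 234 and 187 FPKM in Guozhen roots at day 1 and low nitrogen, against 93.2, 108 and 60.8 FPKM in Guizhen roots, a difference of 1.48. In leaves at day 1 and normal nitrogen it had 223, 233 and 184 FPKM in Guozhen, against 551, 494 and 299 FPKM in Guizhen, a difference of -1.03. Without Guizhen replicate 1 the leaf difference was -0.85.

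Other members of the middle stretch differed at day 1. Solyc09g011610 had 15.0, 12.1 and 5.14 FPKM in Guozhen roots at low nitrogen, against 0.661, 0.972 and 1.18 FPKM in Guizhen roots, a difference of 2.50. Solyc09g011520 had 54.8, 51.6 and 31.9 FPKM in Guozhen roots at normal nitrogen, against 259, 133 and 83.4 FPKM in Guizhen roots, a difference of -1.64. Solyc09g011550 was lower by a similar amount, with 8.80, 13.6 and 11.7 FPKM in Guozhen roots and 85.1, 40.9 and 22.2 FPKM in Guizhen roots. Solyc09g011570, low in leaves, had 2.39, 1.23 and 1.76 FPKM in Guozhen leaves at normal nitrogen, against 0, 0.267 and 0.302 FPKM in Guizhen leaves. It passed the leaf filter through Guozhen alone.

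Single libraries set some of the weaker values. Solyc09g011410 had 7.73, 0.301 and 8.98 FPKM in Guozhen leaves at day 7 and normal nitrogen, against 15.3, 17.6 and 13.4 FPKM in Guizhen leaves. Its difference was -1.76 with all libraries and -0.81 without Guozhen replicate 2. Solyc09g011500, named after its values were seen, had 3.67, 0.00470 and 5.24 FPKM in Guozhen roots at day 7 and low nitrogen, against 6.28, 6.17 and 8.70 FPKM in Guizhen roots. Its difference was -1.37 with all libraries and -0.56 without Guozhen replicate 2. Just short of the rule, Solyc09g011570 differed by -0.99 in roots at day 7 and normal nitrogen without overlap. The largest difference with overlapping libraries was -1.33, for Solyc09g011550 in roots at day 7 and low nitrogen.

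The segment also held members with small differences between the cultivars. Solyc09g011450 had 27.5 to 31.1 FPKM in Guozhen roots at day 1 and normal nitrogen, against 29.8 to 31.8 FPKM in Guizhen roots. Solyc09g011740 differed by at most 0.62 in size in any comparison. Solyc09g011810, the leaf transcript, had 447, 482 and 421 FPKM in Guozhen leaves at day 7 and normal nitrogen, against 484, 614 and 505 FPKM in Guizhen leaves. The summed FPKM of the 40 members was 1418, 1397 and 1379 in Guozhen leaves at day 1 and normal nitrogen, against 1978, 1984 and 1770 in Guizhen leaves. In roots at day 7 and low nitrogen it was 1377, 1326 and 1273 in Guozhen, against 1071, 1064 and 1029 in Guizhen. The sum thus lay on either side, and it mostly reflects the few abundant members.

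The segment was then set beside the rest of chromosome 9, as a description. In root 15 of 40 members (37.5%) were apart in at least 1 of 4 comparisons, against 4 of the 38 tested genes numbered just before the segment, 0 of 7 just after it, 7.47% of the rest of the chromosome and 5.29% of all genes. In leaf 19 of 39 (48.7%) were, against 2 of 37 before, 2 of 6 after, 8.56% of the rest of the chromosome and 5.38% of all genes. Cut into 38 windows of 40 genes, chromosome 9 had its highest share at the segment in both organs, at 37.5% in root and 47.5% in leaf. The next highest windows had 22.5% in root and 25% in leaf, and the medians of the other windows were 7.5% and 5%. The segment had been picked for these differences, so its rank is no independent result.

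**Figure D3:**
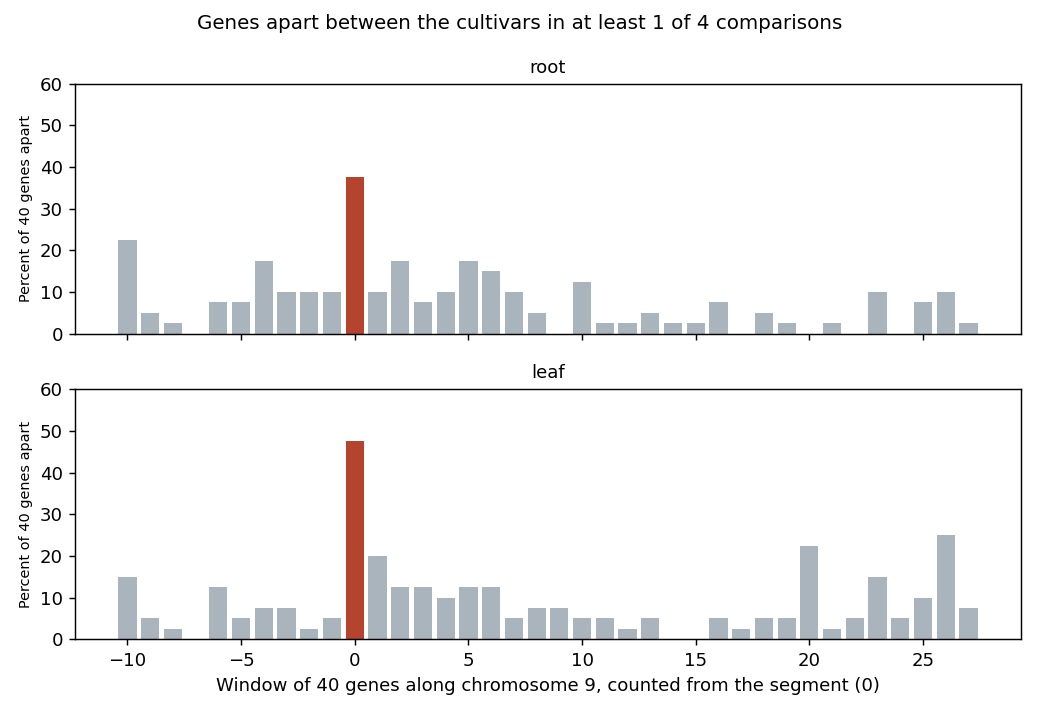
Percent of genes apart between the cultivars in at least 1 of the 4 comparisons of an organ, for windows of 40 genes along chromosome 9 counted from the segment, which is window 0 (red). The segment stands at 37.5% in root and 47.5% in leaf, and the next highest windows at 22.5% and 25%.

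The response to nitrogen, a measure that did not pick the members, was tested with limma as low minus normal nitrogen within each cultivar, organ and day. Genes with a Benjamini-Hochberg adjusted p below 0.05 over all genes of the organ are said to have passed. At day 1 no member passed in any of the 4 comparisons. At an unadjusted p below 0.05 there were 2 of 40 members in Guozhen roots, against 4.29% of all genes, and 12 of 40 in Guizhen roots, against 8.88%. In leaves there were 11 of 39 members in Guozhen, against 10.3% of all genes, and 4 of 39 in Guizhen, against 13.6%. These counts hung on single libraries: leaving out 1 at a time gave 1 to 5 and 7 to 13 members in Guozhen and Guizhen roots, and 4 to 24 and 1 to 6 in Guozhen and Guizhen leaves. Few genes of any kind passed at that day: 0.0391% in Guozhen roots and 0.00979% in Guizhen roots, and 0.0606% in Guozhen leaves and 0.116% in Guizhen leaves.

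The Guozhen leaf count at day 1 rested on 1 library. Without replicate 3 of the low nitrogen group, 14 of 39 members passed, 10 higher and 4 lower at low nitrogen, against 9.94% of all genes, and 24 had an unadjusted p below 0.05, against 24.8% of all genes. In that fit Solyc09g011510 was higher at low nitrogen by 2.11 ± 0.25 (log2, SE; limma, adjusted p = 0.000155), and by 1.46 ± 0.37 with all libraries (limma, adjusted p = 0.151). Solyc09g011590 had 595, 524 and 205 FPKM in Guozhen leaves at low nitrogen, against 223, 233 and 184 FPKM at normal nitrogen. Replicate 3 lay among the normal nitrogen libraries there and the other two far above them. Its difference was 0.91 ± 0.34 with all libraries, which did not pass (limma, adjusted p = 0.383), and 1.39 ± 0.30 without replicate 3 (limma, adjusted p = 0.00892).

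At day 7 members responded in both cultivars. In Guozhen roots 12 of 40 passed, 8 higher and 4 lower at low nitrogen, against 27.6% of all genes (12.8% higher and 14.8% lower). In Guizhen roots 3 of 40 passed, 2 higher and 1 lower, against 7.92% of all genes (4.43% higher and 3.49% lower). In Guozhen leaves 7 of 39 passed, 4 higher and 3 lower, against 17.7% of all genes (12.3% higher and 5.47% lower). In Guizhen leaves 5 of 39 passed, 3 higher and 2 lower, against 16.6% of all genes (11.7% higher and 4.92% lower). These shares of the members were near those of all genes. The members' median response was 0.06 in Guozhen roots and -0.01 in Guizhen roots, beside -0.03 and 0 over all genes. The Guozhen median was below 0, at -0.01 and -0.02, without normal nitrogen replicate 2 or low nitrogen replicate 1. The Guizhen median was above 0, at up to 0.03, without any 1 library other than low nitrogen replicate 3, so neither has a settled direction.

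In Guozhen roots at day 7 the members that rose at low nitrogen included Solyc09g011510 and Solyc09g011650, whose libraries also enter the cultivar comparison. Solyc09g011510 had 28.3, 33.8 and 51.3 FPKM at low nitrogen, against 16.4, 13.3 and 14.7 FPKM at normal nitrogen, a rise of 1.26 ± 0.28 (limma, adjusted p = 0.00285). Solyc09g011650 rose by 0.99 ± 0.20 (adjusted p = 0.00143), to 226 to 291 FPKM at low nitrogen, against 131 to 137 FPKM at normal nitrogen. Solyc09g011630 rose by 1.30 ± 0.28 (adjusted p = 0.00235), to 103, 136 and 137 FPKM at low nitrogen, against 58.5, 53.6 and 39.3 FPKM at normal nitrogen. In none of these did the nitrogen levels overlap.

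The largest fall in the segment was that of Solyc09g011710 in Guozhen roots at day 7. It had 2.70, 2.27 and 1.17 FPKM at low nitrogen, against 13.9, 18.7 and 29.8 FPKM at normal nitrogen, a difference of -2.81 on the log2 scale (SE 0.46; limma, adjusted p = 0.000279). In Guizhen roots the same locus had 34.6, 4.58 and 27.3 FPKM at low nitrogen, against 35.8, 38.6 and 29.7 FPKM at normal nitrogen. One Guizhen library at low nitrogen lay far below the other two. Other falls in Guozhen roots were those of Solyc09g011470 at -1.10, Solyc09g011880 at -0.60 and Solyc09g011830 at -0.56. The fall of Solyc09g011470 did not pass when any 1 of 4 libraries was left out, with an adjusted p of up to 0.0883.

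Solyc09g011580 passed in roots of both cultivars, and was the 1 member that did. It had 128, 119 and 132 FPKM in Guozhen roots at low nitrogen, against 53.7, 52.9 and 67.8 FPKM at normal nitrogen, a rise of 1.12 ± 0.17 (limma, adjusted p = 0.000138). In Guizhen roots it had 97.5, 108 and 62.1 FPKM at low nitrogen, against 52.0, 51.7 and 50.6 FPKM at normal nitrogen, a rise of 0.75 ± 0.17 (limma, adjusted p = 0.0105). Low nitrogen libraries were above normal ones in both. Solyc09g011740 rose in Guozhen roots by 0.72 ± 0.10 (limma, adjusted p = 9.65e-05), with 56.1, 60.2 and 56.4 FPKM at low nitrogen and 32.8, 38.9 and 32.6 FPKM at normal nitrogen. Solyc09g011570 fell by 0.88 in Guizhen roots (SE 0.19; limma, adjusted p = 0.00783), to 38.1, 26.7 and 38.0 FPKM at low nitrogen, against 65.5, 59.9 and 63.8 FPKM at normal nitrogen.

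The Guizhen root count hung on single libraries. When replicate 2 at low nitrogen was left out 0 members passed, against 2.24% of all genes. When replicate 3 at low nitrogen was left out 5 passed, against 14.6%. The largest adjusted p of Solyc09g011580 in Guizhen roots over the 11 alternative settings was 0.171, and that of Solyc09g011570 was 0.126. In Guozhen roots Solyc09g011510, Solyc09g011580, Solyc09g011630, Solyc09g011650, Solyc09g011710 and Solyc09g011740 passed under all 11, with adjusted p up to 0.018.

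In leaves at day 7 the 5 members that passed in Guizhen were among the 7 of Guozhen, with the same direction. They make 71.4% of the Guozhen list and 100% of the Guizhen list. Over all genes, 1636 passed in the leaves of both cultivars, 1633 of them in the same direction, which is 46.5% of the Guozhen list and 49.7% of the Guizhen list. With so few members called, nothing is read from the difference. Solyc09g011850 had 36.4, 8.64 and 11.3 FPKM in Guozhen leaves at low nitrogen, against 46.5, 53.4 and 43.2 FPKM at normal nitrogen, a difference of -1.56 on the log2 scale (SE 0.36; limma, adjusted p = 0.00679). In Guizhen leaves it had 20.4, 11.4 and 27.2 FPKM at low nitrogen, against 47.7, 51.6 and 53.3 FPKM at normal nitrogen, a difference of -1.41 (limma, adjusted p = 0.0158). The nitrogen levels did not overlap in either cultivar.

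Solyc09g011420 fell in both, at -1.09 ± 0.23 in Guozhen leaves (limma, adjusted p = 0.00436) and -1.15 ± 0.23 in Guizhen leaves (limma, adjusted p = 0.00688). It had 43.8, 22.3 and 19.6 FPKM in Guozhen leaves at low nitrogen, against 66.2, 63.8 and 47.1 FPKM at normal nitrogen. In Guizhen leaves it had 28.8, 25.2 and 28.1 FPKM at low nitrogen, against 70.5, 44.8 and 75.1 FPKM at normal nitrogen. Solyc09g011670, Solyc09g011770 and Solyc09g011840 rose in the leaves of both, by 0.62, 0.68 and 0.41 in Guozhen and by 0.73, 0.68 and 0.54 in Guizhen. Solyc09g011580 (0.87) and Solyc09g011830 (-0.74) passed in Guozhen leaves. Each did not pass under 6 of the 11 alternative settings (limma, adjusted p up to 0.131 and 0.161). In Guozhen leaves the rises of Solyc09g011670, Solyc09g011770 and Solyc09g011840 did not pass under 4, 3 and 8 of the 11. In Guizhen leaves these rises did not pass under 2, 4 and 3 of the 11.

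The leaf values at day 7 moved with the scaling. The median response over all genes was 0.14 in Guozhen leaves and 0.16 in Guizhen leaves as deposited, and 0.02 and 0.03 after median-of-ratios scaling, a shift of over 0.1. Over all genes 2431 passed as higher and 1084 as lower in Guozhen leaves as deposited, and 1195 and 1788 after scaling. In Guizhen leaves the counts were 2315 and 974 as deposited, and 992 and 1592 after scaling. Among members, 4 then passed in Guozhen leaves, 1 higher and 3 lower, and 6 in Guizhen leaves, 3 higher and 3 lower. The leaf calls also thinned without single libraries. In Guozhen 4 members passed without replicate 1 at normal nitrogen, against 13.3% of all genes, and 2 without replicate 2 at normal nitrogen, against 9.01%. Without replicate 2 at low nitrogen 1 passed, against 5.96%, and without replicate 3 at low nitrogen 4 passed, against 9.66%. In Guizhen 3 passed when replicate 2 at normal nitrogen was left out, against 8.98% of all genes. Without replicate 1 at low nitrogen 3 passed, and without replicate 2 at low nitrogen 2 did, with the shares of all genes not given here. The share of all genes in Guizhen leaves also fell where 5 members still passed. It was 7.55% without replicate 1 at normal nitrogen and 7.48% without replicate 3, against 16.6% with all libraries. In fits restricted to the compared groups, 0 members passed in the leaves of either cultivar. Hardly any gene did, at 0.126% of all genes in Guozhen leaves and 0.0101% in Guizhen leaves.

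**Figure D4:**
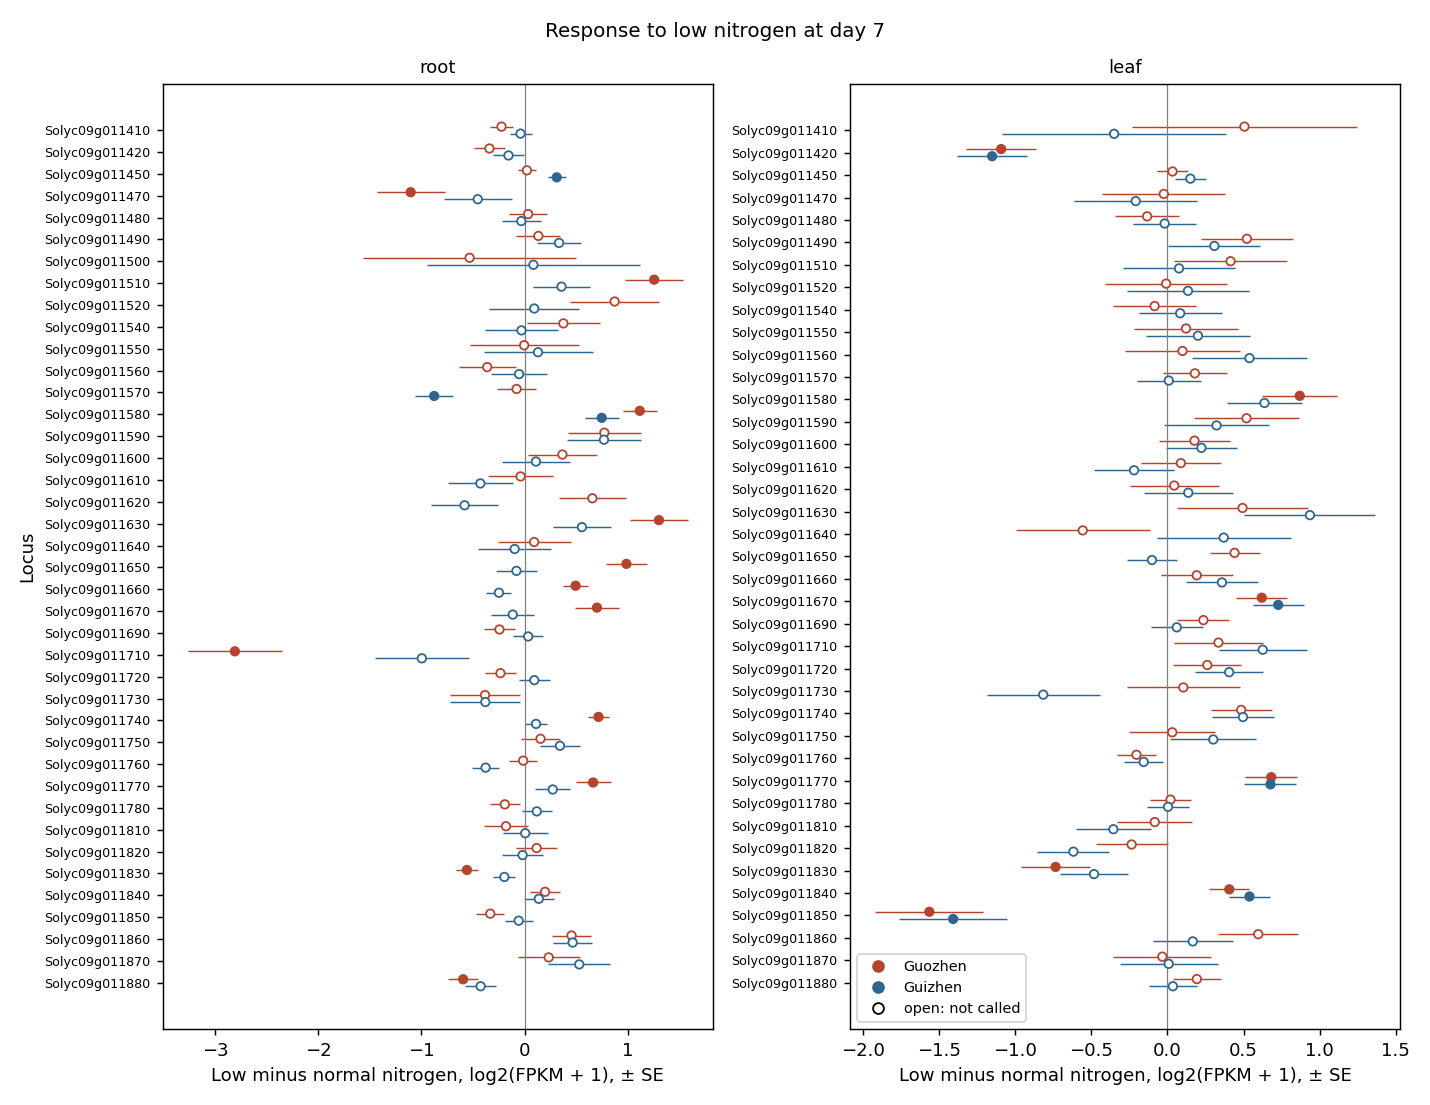
Low minus normal nitrogen at day 7 for each member, as the difference of mean log2(FPKM + 1) with its limma standard error, in Guozhen (red) and Guizhen (blue), root left and leaf right; filled points passed an adjusted p of 0.05. Filled points are 12 in Guozhen roots, 3 in Guizhen roots, 7 in Guozhen leaves and 5 in Guizhen leaves, and Solyc09g011710 in Guozhen roots lies farthest to the left at -2.81.

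The response of Guozhen minus that of Guizhen equals the cultivar difference at low nitrogen minus that at normal nitrogen, and those differences picked the segment. It is therefore given as a description, with no test. In roots at day 1 Solyc09g011630 had 63.3, 53.7 and 40.4 FPKM in Guozhen at low nitrogen, against 42.5, 35.3 and 23.3 FPKM at normal nitrogen. In Guizhen roots it had 119, 84.7 and 71.6 FPKM at low nitrogen, against 349, 222 and 212 FPKM at normal nitrogen. The nitrogen levels overlapped in Guozhen and did not in Guizhen, and the responses differed by 2.13. For Solyc09g011510 the response at that day was 0.96 in Guozhen roots and -1.04 in Guizhen roots. In roots at day 7 the responses differed by 1.07 at Solyc09g011650 and by -1.81 at Solyc09g011710, where 1 low Guizhen library, described above, enters the value.

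Days were compared as day 7 minus day 1 at normal nitrogen, and here most members changed. In Guozhen roots 25 of 40 passed, 4 higher and 21 lower at day 7, against 48.6% of all genes. In Guizhen roots 23 of 40 passed, 3 higher and 20 lower, against 45.7%. In Guozhen leaves 30 of 39 passed, 6 higher and 24 lower, against 61.6%, and in Guizhen leaves 32 of 39, 9 higher and 23 lower, against 59.8%. Of all genes, 22.7% were higher and 25.9% lower at day 7 in Guozhen roots, 21.4% and 24.3% in Guizhen roots, 13.6% and 48% in Guozhen leaves, and 17.4% and 42.4% in Guizhen leaves. The members' median was -0.40 in Guozhen roots and -0.59 in Guizhen roots, beside -0.02 and -0.03 over all genes. In leaves it was -0.72 in Guozhen and -0.83 in Guizhen, beside -0.40 and -0.29 over all genes.

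The deepest falls with day were in leaves. Solyc09g011590 had 4.72, 5.31 and 7.68 FPKM in Guozhen leaves at day 7, against 223, 233 and 184 FPKM at day 1, a difference of -4.97 on the log2 scale (SE 0.34; limma, adjusted p = 1.62e-09). In Guizhen leaves it had 10.2, 9.498 and 8.80 FPKM at day 7, against 551, 494 and 299 FPKM at day 1, a difference of -5.37 (SE 0.34; limma, adjusted p = 4.45e-10). Solyc09g011870 had 0.415, 0.327 and 1.25 FPKM in Guozhen leaves at day 7, against 35.8, 38.0 and 34.6 FPKM at day 1, a difference of -4.52. In Guizhen leaves it had 0.362, 0.587 and 0.245 FPKM at day 7, against 90.7, 142 and 73.6 FPKM at day 1, a difference of -6.16. Both loci were thus far lower at day 7 in every library of both cultivars.

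In leaves Solyc09g011550 differed between the days by -4.11 in Guozhen and -5.31 in Guizhen, and Solyc09g011520 by -2.55 and -4.42. Solyc09g011610 fell too, at -3.98 in Guozhen leaves (limma, adjusted p = 9.96e-10) and -2.66 in Guizhen leaves (limma, adjusted p = 1.08e-07). For Solyc09g011630 the values were -1.03 in Guozhen leaves (limma, adjusted p = 0.0454) and -4.23 in Guizhen leaves (limma, adjusted p = 1.48e-07). The Guozhen value did not pass under 7 of the 11 alternative settings (limma, adjusted p up to 0.164), and the Guizhen value passed under all 11. Whether falls differed between the cultivars was not tested. At day 1 Solyc09g011630 was at 1.38 to 3.51 FPKM in Guozhen leaves, against 41.2 to 66.3 FPKM in Guizhen leaves.

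Roots shared several of these falls. Solyc09g011520 fell in roots, at -3.22 ± 0.43 in Guozhen (limma, adjusted p = 7.94e-06) and -3.60 ± 0.43 in Guizhen (limma, adjusted p = 2.53e-06). Solyc09g011510 had 16.4, 13.3 and 14.7 FPKM in Guozhen roots at day 7, against 101, 110.1 and 75.6 FPKM at day 1, a difference of -2.60. In Guizhen roots it had 2.998, 2.26 and 6.77 FPKM at day 7, against 38.5, 30.4 and 21.3 FPKM at day 1, a difference of -2.70. Of the 39 members tested in both organs, 11 passed as lower at day 7 in both organs of both cultivars and 0 as higher, against 10.9% and 1.84% of the 18239 genes tested in both organs. Among them were Solyc09g011510, Solyc09g011520, Solyc09g011550, Solyc09g011590, Solyc09g011710 and Solyc09g011870. Solyc09g011540 and Solyc09g011620 were also among the 11. In Guozhen leaves each of these did not pass under 7 of the 11 alternative settings (limma, adjusted p up to 0.131 and 0.135). The count was made on the values as deposited, without other scaling.

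Members that rose with day were fewer and lay mostly toward the end of the segment. Solyc09g011810, the leaf transcript, had 447, 482 and 421 FPKM in Guozhen leaves at day 7, against 145, 124 and 142 FPKM at day 1, a rise of 1.71 ± 0.25 (limma, adjusted p = 8.82e-06). In Guizhen leaves it had 484, 614 and 505 FPKM at day 7, against 98.4, 104 and 157 FPKM at day 1, a rise of 2.17 ± 0.25 (limma, adjusted p = 5.48e-07). Solyc09g011750 rose by 1.12 and 1.26, Solyc09g011850 by 1.01 and 1.07, and Solyc09g011830 by 0.88 and 1.04, in Guozhen and in Guizhen leaves. Solyc09g011840 rose in Guizhen leaves by 0.97 ± 0.13 (limma, adjusted p = 5.05e-06).

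In roots the day effect went opposite ways at Solyc09g011760. It had 37.6, 30.3 and 33.2 FPKM in Guozhen roots at day 7, against 59.2, 46.1 and 50.5 FPKM at day 1, a difference of -0.60 (SE 0.13; limma, adjusted p = 0.00104). In Guizhen roots it had 165, 170.5 and 168 FPKM at day 7, against 113, 115 and 121 FPKM at day 1, a rise of 0.53 ± 0.13 (limma, adjusted p = 0.00352). The days did not overlap in either cultivar. Solyc09g011650 rose in Guozhen roots by 1.02 ± 0.20 (limma, adjusted p = 0.000331), to 131 to 137 FPKM at day 7, against 54.0 to 85.4 FPKM at day 1. In Guizhen roots it had 14.6 to 22.2 FPKM at day 7, against 17.5 to 21.4 FPKM at day 1.

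**Figure D5:**
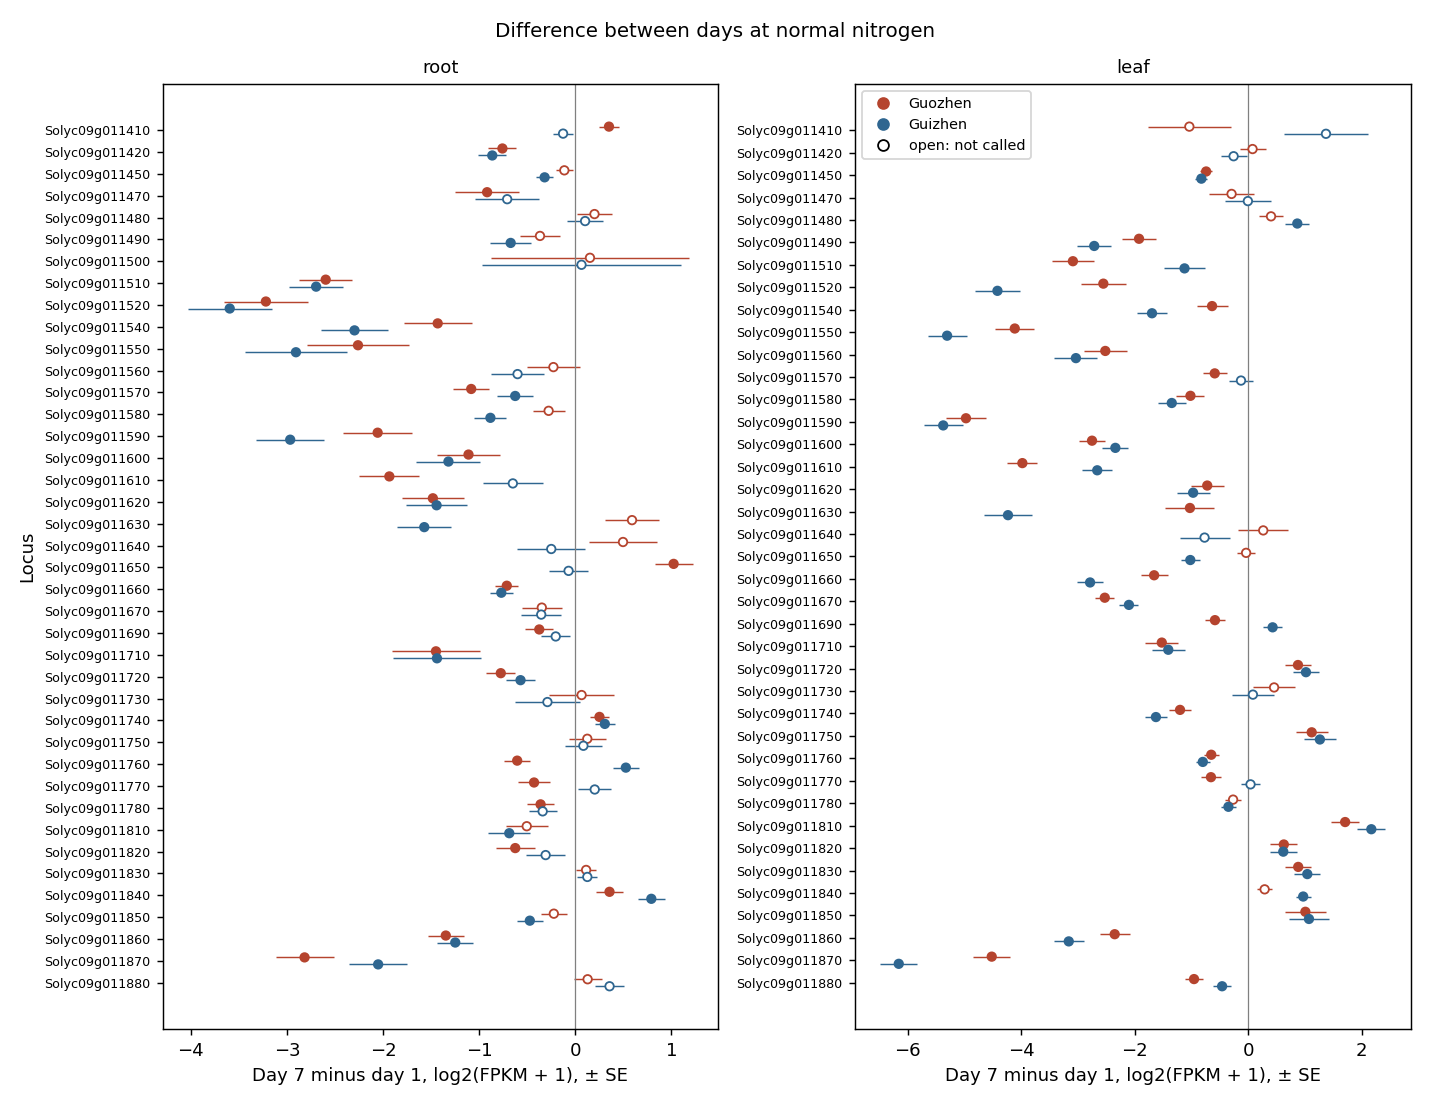
Day 7 minus day 1 at normal nitrogen for each member, as the difference of mean log2(FPKM + 1) with its limma standard error, in Guozhen (red) and Guizhen (blue), root left and leaf right; filled points passed an adjusted p of 0.05. Most filled points lie left of 0, down to -6.16 for Solyc09g011870 in Guizhen leaves, and rises gather in the lower rows of the leaf panel.

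The leaf day values depend on the scaling too. After median-of-ratios scaling the median over all genes was -0.03 in Guozhen leaves and -0.02 in Guizhen leaves, beside -0.40 and -0.29 as deposited. Among members 24 then passed in Guozhen leaves, 8 higher and 16 lower, and 30 in Guizhen leaves, 9 higher and 21 lower, with medians of -0.52 and -0.50. Over all genes 54.5% then passed in Guozhen leaves, 5052 higher and 5738 lower, and 56.2% in Guizhen leaves, 5304 higher and 5824 lower. As deposited these counts were 2685 higher and 9521 lower in Guozhen leaves, and 3454 higher and 8403 lower in Guizhen leaves.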

How the data were processed

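The deposited table gives FPKM values computed by the authors for 29898 genes in 48 libraries, 28005 with a locus number and 1893 newly assembled. HISAT2 and StringTie are named in the submitters' processing notes, with no version; the build and annotation are not given in the sources used here. Groups were taken from the titles, and all 48 value columns were used (0 left out). Counts per gene were not used here, so no counting error could be given.

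Values were taken as log2(FPKM + 1), with a pseudocount of 1. Each organ was fitted on its own with limma 3.58.1 in R 4.3.3: 24 libraries, 1 mean per group, a trend of variance on mean, a filter of 1 FPKM or more in 3 or more libraries (20435 genes in root, 19815 in leaf), and Benjamini-Hochberg adjustment over all of them. Only the nitrogen comparison of Guizhen at day 7, in root and in leaf, was tried on simulated data. These had independent normal noise, with changes placed in the more abundant genes. The other comparisons were not simulated. Differences are on the log2(FPKM + 1) scale and understate the change of low genes. Cultivar differences were described without a test. So was the difference between the cultivars' nitrogen responses, because it is made of them, although a test of it had been planned.

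The members and lists were chosen with earlier results of these data known. Named members (27 of 40) were those apart in 1 direction in all 4 comparisons of an organ, apart in both directions, among the 3 most abundant of an organ, or, per tested comparison, all that passed where 8 or fewer did and otherwise the 4 largest rises and 4 largest falls. No member was at 0 in all libraries of 1 cultivar and organ with the other at 1 FPKM or more, a further part of the rule. Solyc09g011500, Solyc09g011540 and Solyc09g011620 are named besides these. Alternatives were a pseudocount of 0.1, no filter, median-of-ratios scaling, only the libraries of the groups compared, the replicate number as a block, and leaving out each replicate. Without the filter, counts were made over all 47 rows of the segment. Plots were made in Python 3.11.15 with matplotlib 3.10.9.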

Additional observations from a re-analysis of the deposited data

Results flagged for a closer look

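Solyc09g011870 was higher in Guozhen roots, by 1.32, and lower in Guozhen leaves, at -1.42, at day 1 and normal nitrogen, with no overlap of libraries in either organ. The difference between the organs was not tested. Solyc09g011760 was lower at day 7 than at day 1 in every Guozhen root library, at -0.60, and higher in every Guizhen root library, at 0.53, at normal nitrogen. The difference between the cultivars was not tested.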

How the results depend on the processing

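Counts of members apart between the cultivars kept within 1.5 times under every alternative but 1: with a pseudocount of 0.1, 10 were apart in leaves at day 7 and normal nitrogen, against 6. Leaving out each replicate gave 6 to 7 and 9 to 14 members in roots at day 1 (low, then normal nitrogen), 8 to 11 and 6 to 9 in roots at day 7, 6 to 10 and 10 to 12 in leaves at day 1, and 7 to 10 and 4 to 7 in leaves at day 7. Under these alternatives apart genes were counted in the segment only. Whether the counts over all genes moved likewise is not known.

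For nitrogen, leaving out each replicate gave 11 to 12 members in Guozhen roots at day 7, 0 to 5 in Guizhen roots at day 7, 1 to 8 in Guozhen leaves at day 7 and 2 to 7 in Guizhen leaves at day 7. The shares of all genes moved too, over 19.1% to 25.0% in Guozhen roots, 2.24% to 14.6% in Guizhen roots and 5.96% to 21.6% in Guozhen leaves. At day 1 it gave 0 to 0 in Guozhen roots, 0 to 1 in Guizhen roots, 0 to 14 in Guozhen leaves and 0 to 0 in Guizhen leaves. The Guizhen root member at day 1 passed without normal nitrogen replicate 3 or low nitrogen replicate 1. Without the filter, where all 47 rows of the segment were counted, 1 row passed in Guozhen leaves at day 1, against 0.0669% of all genes. With median-of-ratios scaling 4 members passed in Guozhen leaves at day 7, against 15.1% of all genes. With only the libraries of the groups compared, fewer samples entered each fit, and 0 passed in Guizhen roots, Guizhen leaves and Guozhen leaves at day 7. Of all genes 0.0881%, 0.0101% and 0.126% passed there, in that order.

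Day comparisons gave 17 to 22 members in Guozhen roots, 22 to 23 in Guizhen roots, 26 to 28 in Guozhen leaves and 29 to 31 in Guizhen leaves when replicates were left out. Of all genes 40.8% to 46.4%, 38.6% to 41.5%, 55.5% to 58.9% and 54.6% to 55.6% passed in these fits, in that order. No difference of a member that passed changed sign under these alternatives. For members apart between the cultivars the libraries did not overlap, so only the scaling could have changed a sign. It changed none of the 54 apart values of named members, and the apart values of other members were not followed. The cause of the moved counts was not tested. Alternatives planned for the difference between the cultivars' nitrogen responses are not reported, since it carries no test here.

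With replicate number as a block, 1 member passed in Guizhen roots at day 1, against 0, and 13 in Guozhen roots at day 7, against 12. Of all genes 0.0245% and 26.2% passed with the block, in that order. The block moved no other count by more than 1.5 times. Deviations of libraries with the same number correlated at -0.38 to 0.24 between the compared groups of an organ, and in no comparison were all pairs above 0.1. Root libraries were not set against leaf libraries. Whether libraries of the same number share a plant or a batch is thus not known. Depth is unknown, which limits what values below 1 FPKM can show, and 3 libraries a group limit the precision of each value.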
